A study of Mus musculus with 24 samples.

Results

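Matrix metalloproteinases (MMPs) and tissue inhibitors of metalloproteinases (TIMPs) were followed in primary mouse bone marrow-derived macrophages (BMDMs). The 10 genes are Mmp2, Mmp3, Mmp8, Mmp9, Mmp12, Mmp13, Mmp14, Mmp19, Timp1 and Timp2, taken by symbol from the 35770 gene names of the deposited table, and each was found. RNA came from C57BL/6 BMDMs grown in 20 ng/mL M-CSF, with 3 independent samples in each of 8 groups and 24 libraries in all. The macrophages received control media or conditioned media (CM) at 75%, and either vehicle or 100 nM CDDO-Me, for 24 h. The groups are media/vehicle, WT/vehicle, KEAP1 KO/vehicle, NRF2 KO/vehicle, media/CDDO-Me, WT CM/CDDO-Me, KEAP1 KO CM/CDDO-Me and NRF2 KO CM/CDDO-Me. The CM came from the mouse Lewis lung carcinoma line LL2, whose cells were WT or lacked KEAP1 (KEAP1 KO) or NRF2 (NRF2 KO). The KO genes were edited by CRISPR in those cancer cells, and the macrophages of all groups carried no edit, so their own Keap1 and Nfe2l2 levels do not check the labels. Whether the KO lines were single clones is not given in the sources used here. Conditioning of the media by the cancer cells took 48 h. The comparisons ask how media conditioned by the cancer cells changed the macrophages. They also ask what CDDO-Me, a synthetic triterpenoid that activates NRF2, did on top of each medium. Values are TPM, a length-corrected share of the transcripts of a library, so levels can be compared between genes.

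MMPs are zinc-dependent proteases that are made as inactive proenzymes and cleave collagens, elastin, gelatins and many other secreted or surface proteins. Mmp8 and Mmp13 are collagenases, Mmp12 is macrophage elastase, Mmp2 and Mmp9 are gelatinases, Mmp3 is stromelysin-1, and Mmp14 is a membrane-anchored MMP that helps to activate proMmp2 together with Timp2. Timp1 and Timp2 block active MMPs. In tumors, macrophages are a known source of several of these proteases, which remodel matrix and release matrix-bound growth factors.

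Several of the proteases are neighbours. Mmp13, Mmp12, Mmp3 and Mmp8 lie on the plus strand of chromosome 9 (GRCm39) between 7272514 and 7568487, a span of 296 kb that holds 7 of the listed MMP genes. Mmp2 lies on chromosome 8 (93553902 to 93580049), Mmp9 on chromosome 2 (164780439 to 164797771), Mmp14 on chromosome 14 (54668878 to 54682821) and Mmp19 on chromosome 10 (128626773 to 128636695). Timp1 is on chromosome X (20736316 to 20740976) and Timp2 on the minus strand of chromosome 11 (118191887 to 118246566). The 100 bases before the start of each chromosome 9 member are printed below, from RefSeq promoters on GRCm38.p6, since they include both collagenases and the elastase. Capitals mark TGANTCA, the AP-1 element, searched on both strands. For Mmp12 the downstream start is shown.
Mmp13 (chr9:7272414-7272513): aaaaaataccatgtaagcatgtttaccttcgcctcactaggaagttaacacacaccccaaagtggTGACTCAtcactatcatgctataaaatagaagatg
Mmp12 (chr9:7347274-7347373): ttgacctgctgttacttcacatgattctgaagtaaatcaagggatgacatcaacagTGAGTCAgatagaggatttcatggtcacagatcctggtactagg
Mmp3 (chr9:7445722-7445821): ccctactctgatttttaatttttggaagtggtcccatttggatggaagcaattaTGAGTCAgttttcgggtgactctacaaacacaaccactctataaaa
Mmp8 (chr9:7558329-7558428): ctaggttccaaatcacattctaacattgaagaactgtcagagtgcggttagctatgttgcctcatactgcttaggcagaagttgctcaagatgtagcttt
The element began 35 bases before the start of Mmp13, 46 before that of Mmp3 and 44 before the downstream start of Mmp12. It was absent from the 250 bases before Mmp8, the upstream start of Mmp12, Mmp14, Timp1 and Timp2. Among 32851 promoters of the same length, 6.75% held it. The core of the antioxidant response element bound by NRF2, TGACNNNGC, was found before Timp2 only of the 7 members in the promoter table, against 10.2% of all promoters, and TTCNNNGAA, the STAT element, before none, against 7.02%. These are matches of letters, and binding was not measured. Promoters of Mmp2, Mmp9 and Mmp19 were not used here.

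The libraries held macrophage RNA, with the macrophage markers Csf1r, Adgre1, Cd68, Itgam, Fcgr1, Mertk, Lyz2 and Cd14 all above the filter and summing to 14934 to 38385 TPM. All 15 fibroblast or stromal markers were above the filter as well, their sum ranged from 479 to 4967 TPM, and Sparc was the most abundant of them (123 to 1146 TPM). Replicate 3 stood apart in NRF2 KO/vehicle (15702 genes above 0) and in NRF2 KO CM/CDDO-Me (16299), against 17817 to 18993 in the others, and the calls on members that rest on them are given with and without them. Total TPM per library is fixed by the unit (999365 to 999801 over the libraries) and carries no information on read depth. The paper states an average depth, but the depth of each library is unknown.

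Mmp12 dominated the family. It ranged from 350.4 to 9397 TPM (median 2430) and made up 55.8% to 97.0% of the summed TPM of the 8 MMPs. Timp2 (144 to 636 TPM, median 450.5) and Timp1 (113 to 498 TPM, median 223) came next. Mmp19, Mmp14, Mmp13 and Mmp2 had medians of 86.9, 71.3, 45.8 and 32.1 TPM, Mmp8 one of 9.49 and Mmp9 one of 7.67 TPM. Mmp3 was at the limit, between 0 and 3.13 TPM and above 1 TPM in 7 of 24 libraries. The range over the libraries was widest for Mmp8, 519-fold from 1.37 to 711 TPM, and narrowest for Timp1, 4.39-fold. The ratio of summed MMPs to summed TIMPs ran from 1.41 to 27.8, and the highest value came from replicate 3 of NRF2 KO CM/CDDO-Me.

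**Figure D1:**
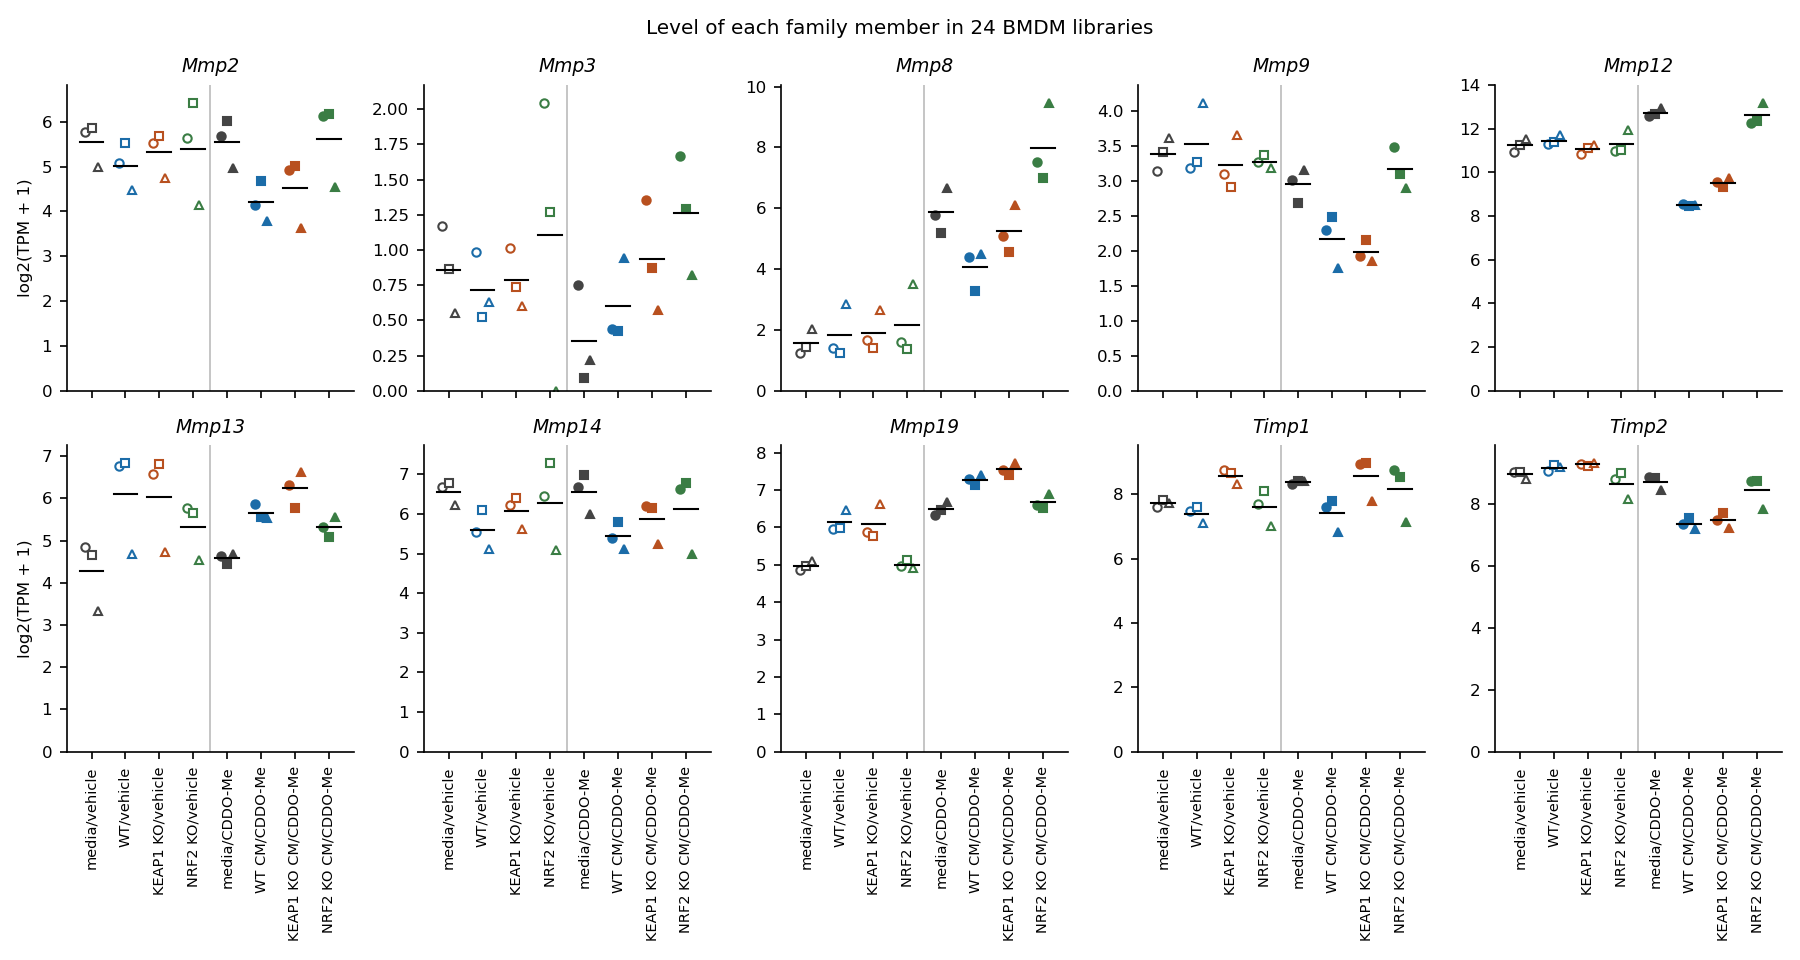
Level of the 10 genes as log2(TPM + 1) in each library, by group (circle, square and triangle for replicates 1, 2 and 3; open symbols, vehicle; filled, CDDO-Me; line, mean of 3). Mmp12 rose in media and NRF2 KO CM and fell in WT and KEAP1 KO CM with CDDO-Me, while Mmp8 and Mmp19 rose in all 4 media.

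Groups were compared by limma on log2(TPM + 1) over the 13661 genes above 1 TPM in at least 3 libraries, and a gene passed at a Benjamini-Hochberg adjusted p under 0.05. All 10 members were tested.

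CM from WT or KEAP1 KO cancer cells raised the collagenase Mmp13 and the secreted protease Mmp19 over control media in BMDMs that received vehicle. Of these genes, only Mmp19 also passed against NRF2 KO CM. Against media/vehicle, Mmp13 and Mmp19 were higher in WT/vehicle BMDMs, 2 of 10 members, with 7.34% of all 13661 genes tested changed in that comparison. The same genes were higher in KEAP1 KO/vehicle BMDMs, where 7.96% of all genes changed. With NRF2 KO CM no member passed the test by limma (0 of 10 also at an unadjusted p under 0.05), and 1 gene of 13661 did, 0.00732%, with 1659 at an unadjusted p under 0.05. These comparisons share the media/vehicle libraries. Against NRF2 KO/vehicle, Mmp19 and Timp2 were higher in WT/vehicle (10.7% of all genes changed) and in KEAP1 KO/vehicle BMDMs (8.82%). Mmp13 did not pass against NRF2 KO/vehicle, and its groups overlapped. Its log2 differences by limma were 0.82 in WT/vehicle (adjusted p = 0.32) and 0.69 in KEAP1 KO/vehicle BMDMs (adjusted p = 0.43). Between KEAP1 KO/vehicle and WT/vehicle, 0% of genes passed (limma, 341 at an unadjusted p under 0.05) and 1 of 10 members, Timp1, had an unadjusted p under 0.05. The median log2 fold change of the members was 0.24 with WT CM, 0.11 with KEAP1 KO CM and -0.01 with NRF2 KO CM against media, beside 0.01, 0.00 and 0.01 over all genes tested.

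**Figure D2:**
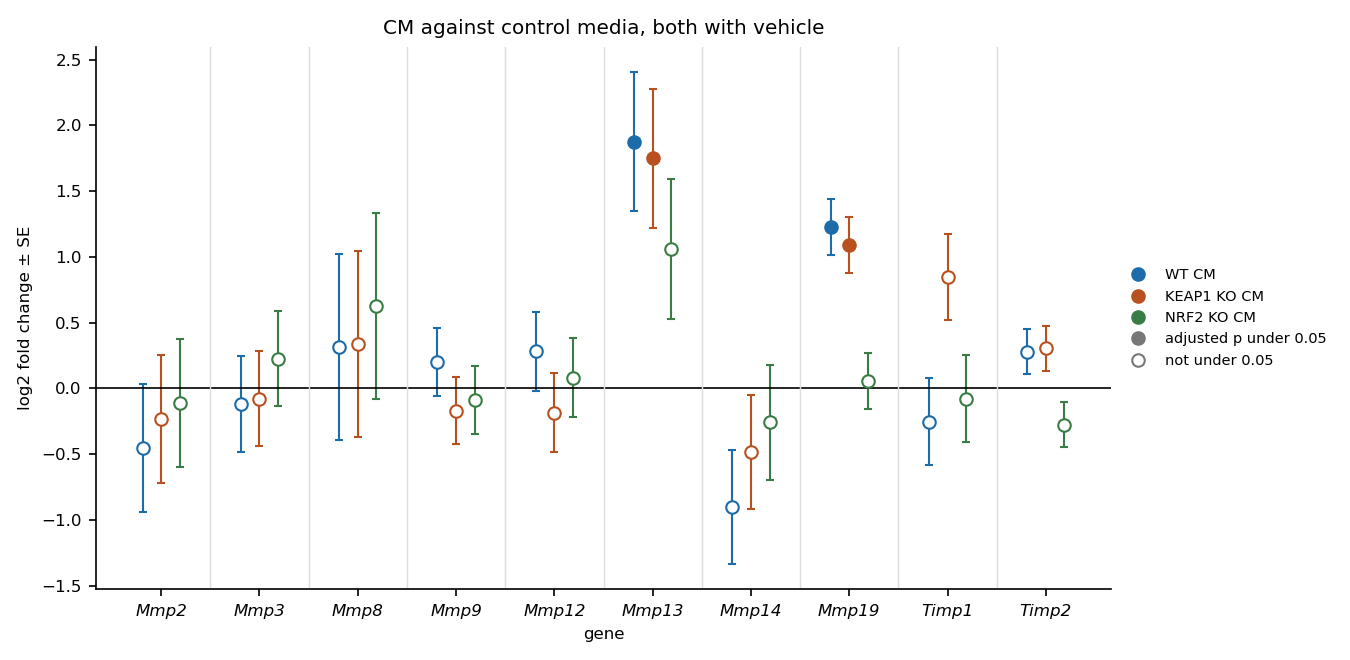
Log2 fold change (points) with SE (bars) of each gene between CM and control media, both with vehicle, for the 3 CM. Filled points passed an adjusted p of 0.05, and these were Mmp13 and Mmp19 with WT CM and KEAP1 KO CM.

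CDDO-Me changed 3 of 10 members in media and in NRF2 KO CM, and 5 of 10 in WT CM and in KEAP1 KO CM. In media, Mmp8, Mmp12 and Mmp19 rose, 3 of 10 members (6.01% of all genes changed), and the same 3 rose in NRF2 KO CM (9.77%). In WT CM, Mmp8 and Mmp19 rose while Mmp9, Mmp12 and Timp2 fell (27.8% of all genes changed), and the same 5 genes moved the same ways in KEAP1 KO CM (28.8%). The effects of CDDO-Me in each CM were also set against that in media, which all 3 such contrasts share. It differed for Mmp12 and Timp2, both in WT CM (15% of all genes) and in KEAP1 KO CM (14.7%). These 2 of 10 members are a share near that of all genes. It differed for no gene in NRF2 KO CM (limma, 0%, with 374 genes and 0 members at an unadjusted p under 0.05). Median log2 fold changes of the members with CDDO-Me were 0.17 in media, -0.20 in WT CM, 0.06 in KEAP1 KO CM and 0.20 in NRF2 KO CM, beside -0.01, -0.03, -0.02 and -0.01 over all genes. Among BMDMs given CDDO-Me, KEAP1 KO CM and WT CM differed in 7 genes, 0.0512%, none of them a member, with Mmp12 and Timp1 at an unadjusted p under 0.05. The effect of CDDO-Me in KEAP1 KO CM less that in WT CM passed for no gene (limma, 0%, with 225 at an unadjusted p under 0.05, Mmp12 among them).

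**Figure D3:**
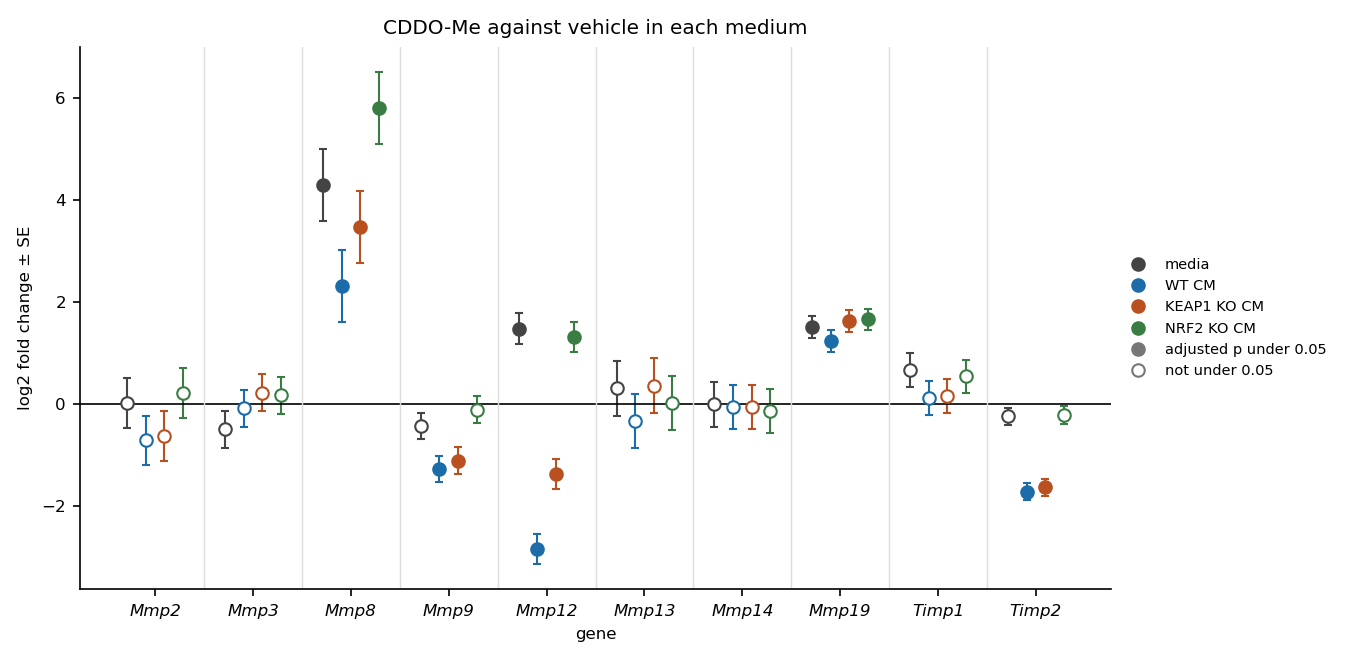
Log2 fold change (points) with SE (bars) of each gene between CDDO-Me and vehicle in the 4 media; filled points passed an adjusted p of 0.05. Mmp12 ran from 1.48 in media to -2.84 in WT CM, and Timp2 fell by 1.71 in WT CM and 1.63 in KEAP1 KO CM.

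Mmp8, the collagenase best known from neutrophil granules, rose with CDDO-Me in all 4 media. In media it was at 1.37, 1.69 and 3.10 TPM with vehicle and reached 53.8, 35.9 and 99.9 TPM with CDDO-Me. In WT CM the values were 1.65, 1.37 and 6.25 TPM with vehicle and 20.2, 8.67 and 21.5 TPM with CDDO-Me. No CDDO-Me library overlapped the vehicle libraries of its medium. In KEAP1 KO CM they were 2.22, 1.64 and 5.34 TPM against 32.8, 22.4 and 67.8 TPM. In NRF2 KO CM, Mmp8 rose from 2.05, 1.60 and 10.3 TPM to 184, 125 and 711 TPM, the highest level of the 8 groups. Replicate 3 was the highest of the vehicle libraries in every medium. On the log2(TPM + 1) scale, which understates the change of low genes, the log2 fold change was 4.29 in media (SE 0.71, adjusted p = 5.5e-04), 2.33 in WT CM (adjusted p = 0.017), 3.47 in KEAP1 KO CM (adjusted p = 6.8e-04) and 5.82 in NRF2 KO CM (adjusted p = 1.4e-05). Without both NRF2 KO CM libraries that stood apart, the last value was 5.76 (adjusted p = 9.7e-06). Left out singly, they moved it in opposite directions, to 6.56 without replicate 3 of NRF2 KO/vehicle and to 5.03 without replicate 3 of NRF2 KO CM/CDDO-Me, and both values passed. The call in WT CM was lost without replicate 1 or 2 of WT/vehicle (adjusted p = 0.068 and 0.08) or replicate 1 or 3 of WT CM/CDDO-Me (0.056 and 0.07). The effect of CDDO-Me in WT CM differed from that in media by -1.97, which did not pass (95% interval -4.06 to 0.12, adjusted p = 0.24). With a term for the replicate number in the limma fit, this difference passed (adjusted p = 0.0034).

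Markers of neutrophils, in which Mmp8 is a granule protein, were looked at beside it. Their sum was 11.9 to 76.6 TPM, S100a8 was the most abundant (3.16 to 63.9 TPM), and 5 of 10 were above the filter. S100a8 rose with CDDO-Me by 2.17 on the log2 scale in WT CM, 2.55 in KEAP1 KO CM and 1.77 in NRF2 KO CM (adjusted p = 4.5e-04, 8.0e-05 and 0.0091), and its value in media was 1.10 (adjusted p = 0.16). The other 4 tested neutrophil markers passed in none of the 4 media. The mean of the summed markers, S100a8 included, was higher with CDDO-Me than with vehicle in all 4 media. With vehicle it was 24.0 TPM in media, 21.3 in WT CM, 21.8 in KEAP1 KO CM and 22.1 in NRF2 KO CM. With CDDO-Me it was 40.4, 45.9, 71.6 and 51.7 TPM in the same order. Of the listed markers, Retnlg was listed at 0 in all but 1 library, Ly6g did not exceed 0.99 TPM, and Mpo did not exceed 0.79 TPM. The part of S100a8-expressing cells in the rise of Mmp8 was not tested.

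Mmp13, the collagenase with the broadest reach over fibrillar collagens, was the member most raised by CM, and its replicates spread widely. Its 3 libraries of media/vehicle were at 27.8, 24.1 and 9.13 TPM, those of WT/vehicle at 109, 113 and 24.6 TPM and those of KEAP1 KO/vehicle at 94.0, 111 and 25.6 TPM. NRF2 KO/vehicle lay between, at 53.3, 49.2 and 22.1 TPM. Replicate 3 was the lowest in each of these groups, and the groups overlapped. The log2 fold change was 1.88 with WT CM (SE 0.53, adjusted p = 0.036), 1.75 with KEAP1 KO CM (adjusted p = 0.049) and 1.06 with NRF2 KO CM (adjusted p = 0.41; 1.38 and 0.8 without both libraries that stood apart). The call with WT CM was lost without replicate 2 or 3 of media/vehicle (adjusted p = 0.061 and 0.19) or replicate 1 or 2 of WT/vehicle (0.18 and 0.18). The call with KEAP1 KO CM was lost without replicate 1, 2 or 3 of media/vehicle (0.058, 0.076 and 0.24) or replicate 1 or 2 of KEAP1 KO/vehicle (0.2 and 0.23). Without replicate 3 of the CM group the log2 fold changes were 2.56 with WT CM (adjusted p = 0.0032) and 2.37 with KEAP1 KO CM (0.0071), and over all single omissions they ran from 1.42 to 2.56 and from 1.29 to 2.37. Neither call passed in a fit of the compared groups alone (adjusted p = 0.092 and 0.09). With CDDO-Me, Mmp13 was at 23.8, 20.8 and 24.5 TPM in media, 57.5, 46.0 and 45.6 in WT CM, 78.7, 53.8 and 96.9 in KEAP1 KO CM and 39.3, 33.0 and 46.2 in NRF2 KO CM, and no effect of CDDO-Me passed (log2 fold changes from -0.33 to 0.37).

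Mmp12, the macrophage elastase, showed the sharpest dependence on medium. With vehicle it was at 1966, 2436 and 2973 TPM in media, 2507, 2690 and 3302 in WT CM, 1857, 2202 and 2423 in KEAP1 KO CM and 1987, 2050 and 3893 in NRF2 KO CM. These groups overlapped, except that WT/vehicle and KEAP1 KO/vehicle did not, and no comparison of CM passed. CDDO-Me took Mmp12 to 6095, 6427 and 7825 TPM in media and 4935, 5273 and 9397 TPM in NRF2 KO CM. In WT CM it fell to 379, 350.4 and 361 TPM and in KEAP1 KO CM to 743, 640.4 and 844 TPM. Every CDDO-Me group lay clear of its vehicle group, above it in media and NRF2 KO CM and below it in the other two. Mmp12 was 2.79-fold higher in media (log2 1.48, SE 0.30, adjusted p = 0.0036) and 2.50-fold higher in NRF2 KO CM (log2 1.32, adjusted p = 0.0064). It was 7.16-fold lower in WT CM (log2 -2.84, SE 0.30, adjusted p = 3.4e-07) and 2.58-fold lower in KEAP1 KO CM (log2 -1.37, adjusted p = 0.0014). The rise in NRF2 KO CM was 1.37 without both libraries that stood apart (adjusted p = 1.4e-04), and it did not pass in a fit of the compared groups alone (adjusted p = 0.35). The effect of CDDO-Me differed from that in media by -4.32 in WT CM (95% interval -5.21 to -3.43, adjusted p = 3.1e-07) and by -2.85 in KEAP1 KO CM (-3.74 to -1.96, adjusted p = 6.7e-05), against -0.16 in NRF2 KO CM (-1.05 to 0.73). Within CDDO-Me, KEAP1 KO CM was 2.01-fold above WT CM with no overlap, a log2 difference of 1.01 (95% interval 0.38 to 1.63) that did not pass over all genes (adjusted p = 0.47). With a term for the replicate number in the limma fit, this difference passed (adjusted p = 0.043). Mmp12 shares 1261 bases at its end with Mmp1b on the other strand, and Mmp1b did not exceed 0.07 TPM.

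Of the gelatinases, Mmp9 passed with CDDO-Me in WT and KEAP1 KO CM. The log2(TPM + 1) scale understates the change of low genes such as Mmp9. Mmp9 fell with CDDO-Me in WT CM, from 8.09, 8.63 and 16.3 TPM to 3.89, 4.57 and 2.36 TPM, and in KEAP1 KO CM, from 7.56, 6.50 and 11.6 TPM to 2.80, 3.45 and 2.63 TPM. Neither pair of groups overlapped. The log2 fold changes were -1.27 (SE 0.26, adjusted p = 7.2e-04) and -1.10 (adjusted p = 0.0024). In media the values were 7.77, 9.60 and 11.2 TPM with vehicle and 7.08, 5.41 and 7.87 TPM with CDDO-Me (log2 -0.43, adjusted p = 0.5), and in NRF2 KO CM the log2 fold change was -0.10 (adjusted p = 0.88). The differences of these effects from that in media, -0.84 in WT CM (95% interval -1.60 to -0.08) and -0.68 in KEAP1 KO CM, did not pass (adjusted p = 0.15 and 0.27). Mmp2 passed in no comparison of the fit of 8 group means, which has no term for the replicate number. Its vehicle levels were 53.8, 57.1 and 30.6 TPM in media, 32.8, 44.8 and 21.2 in WT CM, 45.3, 49.9 and 25.8 in KEAP1 KO CM and 48.4, 85.1 and 16.8 in NRF2 KO CM. With CDDO-Me they were 16.8, 24.8 and 12.8 TPM in WT CM and 29.5, 31.4 and 11.5 TPM in KEAP1 KO CM, the lowest means of the 8 groups, and the log2 fold changes were -0.71 (95% interval -1.72 to 0.31) and -0.62 (-1.64 to 0.40). With a term for the replicate number in the limma fit, both falls of Mmp2 passed (adjusted p = 0.0098 and 0.021).

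Mmp14 and Mmp3 did not pass in any comparison of that fit either. Mmp14 was at 101, 109 and 73.5 TPM in media/vehicle and 45.6, 67.8 and 33.8 TPM in WT/vehicle, with no overlap and a log2 fold change of -0.90 (95% interval -1.81 to 0.01, adjusted p = 0.29, and 0.043 in a fit of those groups alone). With a term for the replicate number in the limma fit, Mmp14 passed with WT CM against media (adjusted p = 0.0098) and against NRF2 KO CM (0.048). KEAP1 KO/vehicle and NRF2 KO/vehicle overlapped media/vehicle, at 73.6, 84.1 and 48.0 and at 86.1, 154 and 33.1 TPM. CDDO-Me shifted Mmp14 by -0.13 to 0.00 over the 4 media. Mmp3 means ran from 0.30 TPM in media/CDDO-Me to 1.51 TPM in NRF2 KO/vehicle, where the libraries held 3.13, 1.41 and 0 TPM, and each group overlapped the next in that order.

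Mmp19, a secreted MMP found in macrophages and other cells, rose with WT and KEAP1 KO CM and again with CDDO-Me in every medium. It was at 28.2, 30.3 and 33.2 TPM in media/vehicle, 61.4, 62.8 and 86.9 TPM in WT/vehicle and 57.3, 53.2 and 97.0 TPM in KEAP1 KO/vehicle, while NRF2 KO/vehicle stayed at 30.2, 34.1 and 29.3 TPM. The WT and KEAP1 KO CM libraries all lay above those of media and of NRF2 KO CM. Mmp19 was 2.34-fold higher with WT CM than in media (log2 1.23, SE 0.21, adjusted p = 8.0e-04) and 2.13-fold with KEAP1 KO CM (log2 1.09, adjusted p = 0.0021). It was also higher with WT CM than with NRF2 KO CM (log2 1.17, adjusted p = 0.0013; 1.19 and 0.0012 without both libraries that stood apart) and with KEAP1 KO CM than with NRF2 KO CM (log2 1.04, adjusted p = 0.0037; 1.07 and 0.0028 without them). The last call was lost in a fit of those groups alone (adjusted p = 0.19). CDDO-Me took Mmp19 to 79.9, 87.0 and 101 TPM in media, 156, 138 and 168 TPM in WT CM, 183, 169.5 and 209 TPM in KEAP1 KO CM and 95.1, 91.3 and 117 TPM in NRF2 KO CM, all above their vehicle libraries. The log2 fold changes were 1.52 (adjusted p = 1.1e-04), 1.24 (1.3e-04), 1.64 (5.1e-06) and 1.66 (2.7e-05). The last was 1.54 (adjusted p = 3.1e-04) without both libraries that stood apart. The effects in CM differed from that in media by -0.27 in WT CM (95% interval -0.91 to 0.36), 0.12 in KEAP1 KO CM (-0.51 to 0.76) and 0.15 in NRF2 KO CM (-0.49 to 0.78). The gene lies within Tmem198b of the other strand, which was at 11.4 to 19.04 TPM in these libraries.

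Of the inhibitors, Timp2 fell with CDDO-Me where Mmp12 fell. Timp2 was at 528, 523 and 449.9 TPM in media/vehicle, 539, 611 and 586 TPM in WT/vehicle and 623, 603 and 636 TPM in KEAP1 KO/vehicle. NRF2 KO/vehicle held 451, 510.1 and 286 TPM. With CDDO-Me, Timp2 was at 161, 187 and 144 TPM in WT CM and at 179.7, 208 and 149 TPM in KEAP1 KO CM, below every library of the other groups. Media/CDDO-Me (465, 462 and 351 TPM) and NRF2 KO CM/CDDO-Me (424, 431 and 231 TPM) overlapped their vehicle groups. Timp2 was 3.27-fold lower in WT CM (log2 -1.71, SE 0.17, adjusted p = 1.5e-07) and 3.09-fold lower in KEAP1 KO CM (log2 -1.63, adjusted p = 2.9e-07), and the shifts in media and NRF2 KO CM were -0.23 (adjusted p = 0.63) and -0.21 (adjusted p = 0.56). The effect differed from that in media by -1.47 in WT CM (95% interval -1.98 to -0.97, adjusted p = 1.7e-04) and by -1.39 in KEAP1 KO CM (-1.90 to -0.89, adjusted p = 3.1e-04). With vehicle, Timp2 was higher with WT CM than with NRF2 KO CM (log2 0.55, SE 0.17, adjusted p = 0.042) and with KEAP1 KO CM than with NRF2 KO CM (log2 0.58, adjusted p = 0.038). These values shrank to 0.37 (adjusted p = 0.044) and 0.41 (adjusted p = 0.029) without both libraries that stood apart. The first was lost without replicate 1, 2 or 3 of WT/vehicle (adjusted p = 0.07, 0.11 and 0.13) or replicate 3 of NRF2 KO/vehicle (0.22). The second was lost without replicate 1, 2 or 3 of KEAP1 KO/vehicle (0.11, 0.064 and 0.12) or replicate 3 of NRF2 KO/vehicle (0.19). Neither passed in a fit of the compared groups alone (adjusted p = 0.32 for both).

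Timp1 was highest among the vehicle groups where the cancer cells lacked KEAP1. It passed in no comparison of the fit of 8 group means, which has no term for the replicate number. It was at 428, 407 and 317 TPM in KEAP1 KO/vehicle, above all libraries of media/vehicle (196, 224 and 210.1 TPM), WT/vehicle (178, 196 and 136 TPM) and NRF2 KO/vehicle (208, 276 and 128 TPM). The log2 difference from WT/vehicle was 1.10 (95% interval 0.41 to 1.79, adjusted p = 1), that from media/vehicle 0.85 (0.16 to 1.54, adjusted p = 0.14, and 0.003 in a fit of those groups alone) and that from NRF2 KO/vehicle 0.93 (0.23 to 1.62, adjusted p = 0.088). The last was 0.70 (adjusted p = 0.12) without both libraries that stood apart, and it passed without replicate 2 of NRF2 KO/vehicle (1.12, adjusted p = 0.05). With a term for the replicate number in the limma fit, the differences from media/vehicle (adjusted p = 0.024) and NRF2 KO/vehicle (0.014) passed. That from WT/vehicle did not (0.33). With CDDO-Me, KEAP1 KO CM held 486, 498 and 222 TPM and WT CM 196, 221 and 113 TPM, with no overlap and a log2 difference of 1.13 (95% interval 0.44 to 1.83, adjusted p = 0.42). KEAP1 KO CM/CDDO-Me overlapped media/CDDO-Me (322, 343 and 340 TPM) and NRF2 KO CM/CDDO-Me (432, 375 and 141 TPM). In media the log2 fold change with CDDO-Me was 0.68 (adjusted p = 0.33, and 0.0017 in a fit of those groups alone). Timp1 lies inside Syn1 of the other strand, a neuronal gene listed at 2.00 to 12.04 TPM here.

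Markers of stromal cells moved with several members inside the groups. Over the 24 libraries, deviations from the group mean followed the summed stromal markers with r = 0.93 for Mmp2, 0.91 for Mmp14, 0.85 for Timp1 and 0.77 for Timp2, and with r = -0.87 for Mmp8, -0.71 for Mmp12 and -0.71 for Mmp19. For Mmp13 and Mmp9 the values were 0.16 and -0.12. Deviations also followed the number of genes above 0 in a library, with r = -0.89 for Mmp12, -0.78 for Mmp8, 0.80 for Timp2, 0.79 for Mmp14 and 0.73 for Mmp2. Mmp2 and Mmp14 deviated together (r = 0.98), and so did Mmp8 and Mmp12 (0.91), while Mmp2 and Mmp8 deviated in opposite ways (-0.94). These r are descriptions, since libraries with the same number tended to deviate together. The stromal sum was 2854, 3223 and 1942 TPM in media/vehicle, 1665, 2385 and 1213 in WT/vehicle, 2620, 3219 and 1735 in KEAP1 KO/vehicle and 2204, 4678 and 1603 in NRF2 KO/vehicle. With CDDO-Me it was 3745, 4967 and 2090 TPM in media, 850.1, 1313 and 528 in WT CM, 1498, 1756 and 479 in KEAP1 KO CM and 3126, 3689 and 1085 in NRF2 KO CM. Replicate 3 was the lowest in all 8 groups. With CDDO-Me, 1 of 15 stromal markers fell in WT CM (median log2 fold change -0.76) and 3 of 15 fell in KEAP1 KO CM (median -0.97), among them Pdgfra in both, and none passed in media (0.15) or NRF2 KO CM (-0.33). These shares lay below those of all genes changed in WT CM (27.8%) and KEAP1 KO CM (28.8%). The others in KEAP1 KO CM were Postn and Acta2. With vehicle, Acta2 and Tagln, genes of contractile cells, were lower with WT CM than in media (log2 -1.57 and -1.21, adjusted p = 0.005 and 0.04), and none of the 15 passed with KEAP1 KO CM. The part of these markers and of the number of genes detected in the results for Mmp2, Mmp14, Timp1, Timp2, Mmp8, Mmp12 and Mmp19 was not tested, and in bulk RNA fewer cells of a type and less RNA per cell cannot be told apart. Epithelial, endothelial and lymphocyte markers summed to at most 9.23, 66.6 and 1.62 TPM. Of 2 tested epithelial markers, 1 rose with WT and KEAP1 KO CM, and 2 fell with CDDO-Me there (median log2 -1.53 and -1.81). Of 3 endothelial markers, 1 rose and 1 fell with these CM, and 1 fell with CDDO-Me in each of the 4 media. Of 8 macrophage markers, 2 fell with these CM. With CDDO-Me, 1 rose and 2 fell in media, 2 rose and 2 fell in WT CM, 2 rose and 1 fell in KEAP1 KO CM, and 2 fell in NRF2 KO CM. Of all genes, 7.34% changed with WT CM and 7.96% with KEAP1 KO CM. With CDDO-Me, 6.01% changed in media, 27.8% in WT CM, 28.8% in KEAP1 KO CM and 9.77% in NRF2 KO CM. The part of these epithelial, endothelial, lymphocyte and macrophage markers in the results for the members was not tested.

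**Figure D4:**
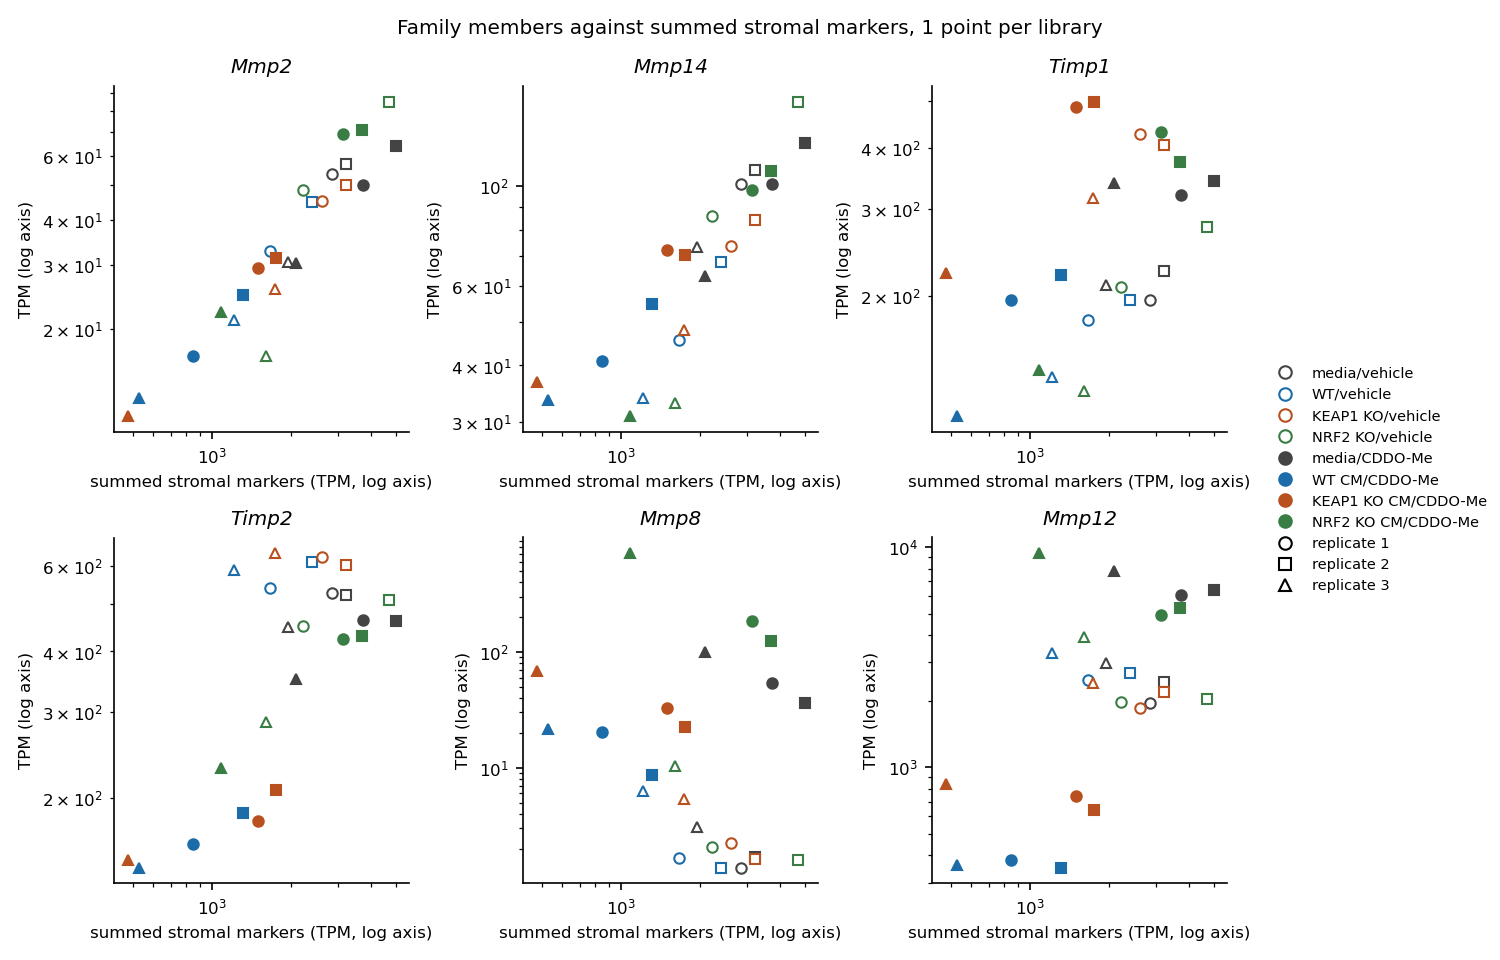
TPM of 6 members (y, log axis) against the summed TPM of 15 stromal markers (x, log axis), 1 point per library; open symbols, vehicle; filled, CDDO-Me; circle, square and triangle for replicates 1, 2 and 3. Mmp2 and Mmp14 climb with the sum over the whole range from 479 to 4967 TPM, whereas the CDDO-Me libraries of WT and KEAP1 KO CM lie apart from the rest for Mmp12.

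Of 18 other listed MMP and TIMP genes, 10 were above the filter. CDDO-Me raised 1 and lowered 2 of these 10 in WT CM and in KEAP1 KO CM, a share near that of all genes (27.8% and 28.8%), and none of them passed in media or NRF2 KO CM. Mmp25, a membrane-anchored MMP of leukocytes, was at 0.06, 0.09 and 0.24 TPM with vehicle and 14.3, 9.22 and 15.6 TPM with CDDO-Me in WT CM, and at 0.10, 0.05 and 0.09 TPM and 12.03, 8.53 and 19.6 TPM in KEAP1 KO CM. It was at or below 0.13 TPM in every library of the other groups. Mmp25, the 1 gene counted as raised, thus passed the filter only through the groups in which it was high, and its levels are given as a description with no test. Mmp27, the next listed MMP gene after Mmp8 on chromosome 9, went the other way, from 10.4, 11.2 and 15.3 TPM to 0.49, 0.36 and 0.47 TPM in WT CM (log2 -3.16, adjusted p = 1.1e-06) and from 8.66, 8.40 and 14.5 TPM to 0.85, 0.52 and 0.99 TPM in KEAP1 KO CM (log2 -2.55, adjusted p = 1.5e-05). In media and NRF2 KO CM with CDDO-Me it remained between 8.43 and 23.5 TPM. Mmp16, another membrane-anchored MMP, fell from a mean of 3.29 to 1.31 TPM in WT CM (adjusted p = 0.0031) and from 5.32 to 1.21 TPM in KEAP1 KO CM (adjusted p = 1.4e-05). With vehicle it was the 1 listed gene to pass with KEAP1 KO CM against media (log2 0.67, adjusted p = 0.042), a call lost without any 1 of media/vehicle replicates 1, 2 and 3 (0.085, 0.083 and 0.16) or KEAP1 KO/vehicle replicate 1 or 2 (0.21 and 0.13).

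ADAM proteases shed surface proteins, and 11 of 12 listed ADAM and ADAMTS genes were tested. With vehicle, 3 rose and 1 fell with WT CM (7.34% of all genes changed), and likewise with KEAP1 KO CM (7.96%). None passed with NRF2 KO CM, where 1 of all 13661 genes did (0.00732%). Adam8, a sheddase of myeloid cells, was at 406, 370.0 and 356 TPM in media/vehicle, 879, 873 and 755 TPM with WT CM and 802, 799 and 807 TPM with KEAP1 KO CM (log2 1.21 and 1.08, adjusted p = 3.7e-04 and 9.7e-04). Adam9 rose by 0.70 and 0.81 on the log2 scale (adjusted p = 7.6e-06 and 1.0e-06), and Adam17, which releases TNF, fell by 0.52 and 0.60 (adjusted p = 0.0041 and 9.8e-04). CDDO-Me lowered Adam8 to 201, 222 and 190.0 TPM in WT CM (log2 -1.92, adjusted p = 2.0e-07) and to 221, 240.1 and 249.7 TPM in KEAP1 KO CM (log2 -1.58, adjusted p = 2.4e-06). In both of these media it lowered 4 and raised 2 of the 11 genes, against 27.8% and 28.8% of all genes changed. In media Adam8 was also lower with CDDO-Me, at 224.5, 228 and 223 TPM (log2 -0.74, adjusted p = 0.027), a call lost without any 1 of the 3 media/vehicle (0.12, 0.066 and 0.064) or the 3 media/CDDO-Me replicates (0.089, 0.091 and 0.058).

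The plasminogen system generates plasmin, which can activate proMMPs, and 7 of its 9 listed genes were tested. Plau, the urokinase activator, fell with CDDO-Me from a mean of 101 to 43.1 TPM in media (adjusted p = 0.015), from 90.02 to 42.5 TPM in KEAP1 KO CM (0.02) and from 72.8 to 33.6 TPM in NRF2 KO CM (0.012). In WT CM its means were 88.02 and 50.6 TPM (adjusted p = 0.087). The call in media was lost without media/vehicle replicate 3 (0.1) or media/CDDO-Me replicate 1 or 2 (0.081 and 0.069). That in KEAP1 KO CM was lost without KEAP1 KO/vehicle replicate 3 (0.12) or KEAP1 KO CM/CDDO-Me replicate 1 or 2 (0.087 and 0.051), and that in NRF2 KO CM without its CDDO-Me replicate 3 (0.053) or both libraries that stood apart (0.091). Plaur, the urokinase receptor, rose with CDDO-Me in WT CM, from 51.1, 48.6 and 96.7 TPM to 93.4, 98.8 and 134 TPM (log2 0.89, adjusted p = 0.039), and in KEAP1 KO CM, from 46.5, 46.05 and 83.01 TPM to 107, 100.5 and 144 TPM (log2 1.20, adjusted p = 0.0057). The groups overlapped in WT CM and not in KEAP1 KO CM. The call in WT CM was lost without replicate 1 or 2 of WT/vehicle (0.15 and 0.18) or replicate 2 or 3 of WT CM/CDDO-Me (0.057 and 0.16). Its log2 fold changes in media and NRF2 KO CM were 0.15 and 0.38 (adjusted p = 0.96 and 0.58).

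Among 10 tested partners and matrix substrates, 3 rose and 1 fell with WT CM, and likewise with KEAP1 KO CM (7.34% and 7.96% of all genes changed), and CDDO-Me lowered 3 in each of these media (27.8% and 28.8%), 1 in media and 1 in NRF2 KO CM (6.01% and 9.77%). Itgb3 rose with both CM. The gene encodes the beta chain of the vitronectin receptor, a docking site for Mmp2. It stood at 15.0, 15.1 and 13.0 TPM in media/vehicle, 54.1, 39.9 and 50.3 TPM with WT CM and 48.4, 38.2 and 66.2 TPM with KEAP1 KO CM (log2 1.73 and 1.71, adjusted p = 4.5e-05 and 4.7e-05). CDDO-Me took it to 2.53, 3.06 and 2.18 TPM in WT CM and 3.34, 3.05 and 1.89 TPM in KEAP1 KO CM (log2 -3.69 and -3.63, adjusted p = 1.9e-10 and 2.4e-10). Both groups lay below every media/vehicle library. Cd44, a hyaluronan receptor that can hold Mmp9 at the cell surface, rose from a mean of 129 TPM in media/vehicle to 234 TPM with WT CM and 232 TPM with KEAP1 KO CM (log2 0.92 and 0.82, adjusted p = 0.0028 and 0.0066). CDDO-Me lowered it by 0.65 on the log2 scale in WT CM and 0.53 in KEAP1 KO CM (adjusted p = 0.011 and 0.035). The first of these calls was lost without replicate 3 of WT/vehicle (0.064), and the second without replicate 1 or 3 of KEAP1 KO/vehicle (0.064 and 0.19) or replicate 2 or 3 of KEAP1 KO CM/CDDO-Me (0.14 and 0.063). Furin, a proprotein convertase that activates Mmp14, rose with WT and KEAP1 KO CM (log2 0.46 and 0.51, adjusted p = 0.016 and 0.0073), and both calls were lost without replicate 2 of media/vehicle (0.1 and 0.055) or replicate 3 of the CM group (0.091 and 0.051). Lrp1, an endocytic receptor that clears MMPs, fell from a mean of 322.5 TPM in media/vehicle to 162 TPM with WT CM and 157 TPM with KEAP1 KO CM (log2 -0.92 and -1.06, adjusted p = 0.043 and 0.017). Its call with WT CM was lost without any 1 of the 3 media/vehicle (0.14, 0.11 and 0.091) or the 3 WT/vehicle replicates (0.11, 0.1 and 0.12), and that with KEAP1 KO CM without replicate 1 of media/vehicle (0.071) or replicate 3 of KEAP1 KO/vehicle (0.084). Spp1, the matrix protein osteopontin, which MMPs cleave, fell with CDDO-Me in all 4 media, by 1.02 on the log2 scale in media, 2.79 in WT CM, 2.49 in KEAP1 KO CM and 1.20 in NRF2 KO CM (adjusted p = 0.0016, 5.1e-10, 2.9e-09 and 2.1e-04). The last was -0.99 (adjusted p = 0.0052) without both libraries that stood apart, and did not pass in a fit of the compared groups alone (0.085).

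**Figure D5:**
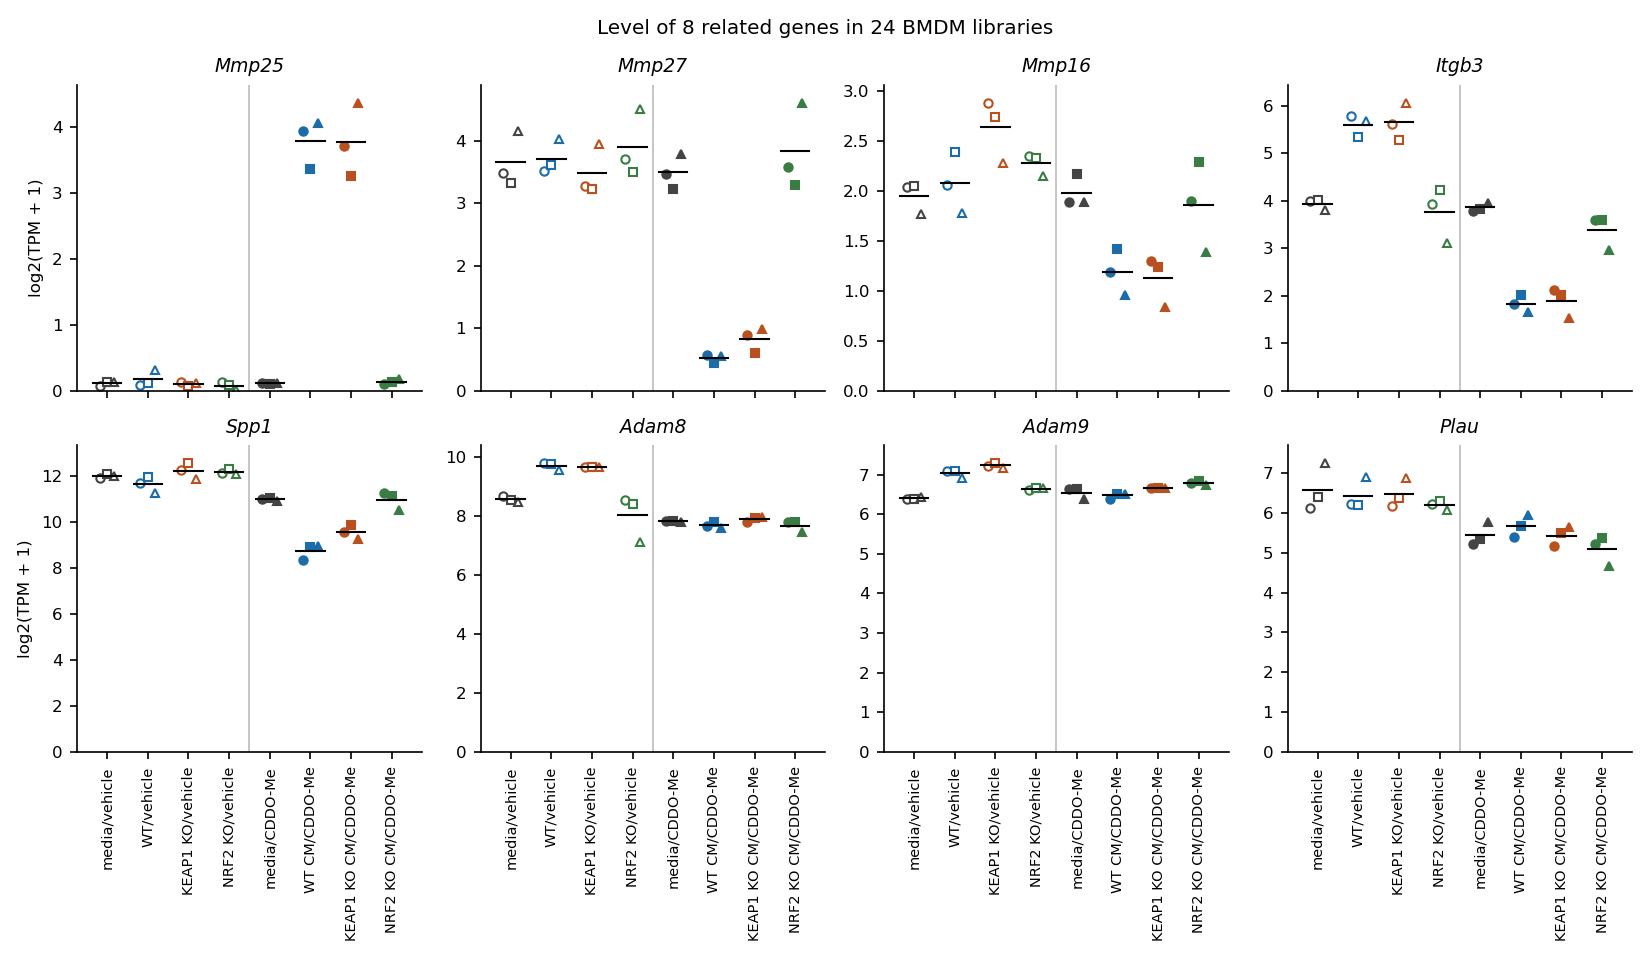
Level of 8 related genes as log2(TPM + 1) in each library, by group (circle, square and triangle for replicates 1, 2 and 3; open symbols, vehicle; filled, CDDO-Me; line, mean of 3). In WT CM and KEAP1 KO CM with CDDO-Me, Mmp25 lies between 8.53 and 19.6 TPM and Itgb3 between 1.89 and 3.34 TPM.

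Of 13 tested transcription factors that act on MMP genes, Fosl1, a subunit of AP-1, fell with WT CM (log2 -0.96, adjusted p = 0.0056). With CDDO-Me, 1 rose and 6 fell in WT CM (27.8% of all genes changed), 2 rose and 5 fell in KEAP1 KO CM (28.8%), 1 rose and 2 fell in NRF2 KO CM (9.77%) and 0 passed in media (6.01%). In NRF2 KO CM, Fosl2, another AP-1 subunit, rose (log2 1.16, adjusted p = 0.0088; 1.06 and 0.013 without both libraries that stood apart), and it did not pass in a fit of the compared groups alone (0.27). Atf3, a stress-induced partner of AP-1, fell by 0.94 in WT CM and 0.65 in KEAP1 KO CM (adjusted p = 1.9e-05 and 0.001). Of the 8 listed NRF2 targets, 8 rose with CDDO-Me in media, 7 in WT CM, 8 in KEAP1 KO CM and 8 in NRF2 KO CM. Nqo1, a quinone reductase, rose by 4.85, 3.67, 4.44 and 5.35 on the log2 scale (adjusted p = 2.1e-08, 3.6e-08, 2.3e-09 and 3.4e-09). The last was 5.07 (adjusted p = 1.8e-07) without both libraries that stood apart.

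Each member also had genes that followed it over the 24 libraries, given by Pearson r of the log2 level as a description, since the libraries share groups and replicate numbers. Mmp8 was followed most closely by Cyb5a (0.98), Pygl (0.97) and Ugt1a7c (0.96), and Mmp12 by Glul (0.95), Nfya (0.95) and Adgrl2 (0.94). Timp2 was followed by Fam20c (0.98), Dhrs3 (0.97) and Tarbp1 (0.96), and Mmp19 by Sema4a (0.95), Bach1 (0.95) and S100a10 (0.93). For Mmp2 the closest were Itm2a (0.97), Cdc42ep1 (0.97) and Igsf3 (0.95), and for Mmp14 Smo (0.95), Pcdhgc3 (0.94) and Olfml2b (0.94). For Mmp9 they were Ccr3 (0.89), Slc26a11 (0.89) and Pdgfa (0.88), and for Timp1 Spsb1 (0.84), Glipr2 (0.79) and Slc19a2 (0.77). Mmp13 and Mmp3 had no follower above 0.72, with Ddx31 (0.72), Chchd1 (0.72) and N4bp1 (0.72) for Mmp13 and Vps72 (0.69), Gdpd2 (0.68) and Mroh2a (0.68) for Mmp3.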

How the data were processed

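Poly-A RNA of 24 BMDM libraries was sequenced, and the authors quantified it with Kallisto on GRCm39 cDNA. The authors deposited gene-level TPM values, which sum to nearly the same total in each library, and so the depth of each library is unknown. The paper states an average depth, and the effect of depth on precision was not computed. The table is named as length-scaled counts. In genes with 1 annotated transcript, the lowest values above 0 (5% quantile) fell from 0.049 at a median length of 699 bases to 0.0080 at 5016 bases, as a length-corrected unit gives, and the values were used as TPM. Strandedness is not given in the sources used here. A row without a gene name (199.1 to 635.1 TPM) was left out. TPM were scaled by TMM (trims of 30% and 5%), and log2(TPM + 1) of genes above 1 TPM in at least 3 libraries was fitted with limma 3.58.1 (R 4.3.3), as 8 group means with 16 residual degrees of freedom and a trend, two-sided, with Benjamini-Hochberg adjustment over 13661 genes. The scripts were tested on simulated data. Figures used matplotlib 3.10.9.

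All 10 members are named, and up to 4 genes of each other list per comparison, by the smallest p, of which some are not reported here. Members and lists were chosen with earlier results of these data known. Of the 15 comparisons, 2 (KEAP1 KO CM against WT CM with CDDO-Me, as a difference and as an interaction) were added after the data were seen, as was the omission of both NRF2 KO libraries with few genes. The alternatives were RLE or no scaling, a pseudocount of 0.5, no filter or a mean TPM of at least 5, no trend, a replicate block, only the groups compared and leaving out each replicate.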

Additional observations from a re-analysis of the deposited data

Results flagged for a closer look

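The effect of CDDO-Me differed between media for Mmp12 and Timp2, tested as an interaction contrast in limma over all genes. For Mmp12 the log2 effect in WT CM less that in media was -4.32, with 3 of 3 CDDO-Me libraries below all vehicle libraries in WT CM and 3 of 3 above them in media (adjusted p = 3.1e-07). In KEAP1 KO CM the difference was -2.85 (adjusted p = 6.7e-05). For Timp2 the differences were -1.47 in WT CM (adjusted p = 1.7e-04) and -1.39 in KEAP1 KO CM (adjusted p = 3.1e-04).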

How the results depend on the processing

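No member changed sign in any of its 43 results under the alternatives run, and 29 of them also stayed on their side of the threshold in all of these. The counts of members called moved in the vehicle comparisons. With WT CM against media the 2 called became 1 with no scaling or no filter, and with KEAP1 KO CM against media they became 1 with RLE, no scaling, no filter or no trend. Against NRF2 KO CM, the 2 called with WT CM became 1 with RLE, no scaling, no filter or only the groups compared, and 4 without both NRF2 KO libraries with few genes. In that last fit 2091 of all genes were called, against 1457, and the members gained are not named here. The 2 called with KEAP1 KO CM against NRF2 KO CM became 1 with no scaling or no filter and 0 with only the groups compared. Leaving out 1 replicate gave 1 to 2 calls with WT CM and 1 to 2 with KEAP1 KO CM against media, and 1 to 2 and 1 to 3 against NRF2 KO CM. With only the groups compared, the counts against media were 2 with WT CM and 3 with KEAP1 KO CM, and not all of the same genes: Mmp13 was lost with WT CM (adjusted p = 0.092) and KEAP1 KO CM (0.09), while Mmp14 was gained with WT CM (0.043) and Timp1 (0.003) and Timp2 (0.042) with KEAP1 KO CM. Timp1 with CDDO-Me in media was also gained (0.0017). The causes were not tested.

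Same-numbered libraries tended to deviate together (mean r 0.26, lowest 0.02, over 0.1 in 71 of 84 pairs, and 22 of 24 libraries matched best with their own number), but the labels do not say that a number marks a shared culture. With the replicate block, genes called went from 1003 to 1734 with WT CM and from 1087 to 1770 with KEAP1 KO CM against media, from 1 to 4 with NRF2 KO CM, from 1457 to 2568 and from 1205 to 2186 against NRF2 KO CM, from 821 to 1466 with CDDO-Me in media and from 7 to 28 between KEAP1 KO CM and WT CM with CDDO-Me. In the last the block called 1 member, Mmp12 (adjusted p = 0.043), against 0. It also called Mmp14 with WT CM against media (0.0098), Timp1 with KEAP1 KO CM against media (0.024) and NRF2 KO CM (0.014), Mmp14 with WT CM against NRF2 KO CM (0.048), Mmp2 with CDDO-Me in WT CM (0.0098) and KEAP1 KO CM (0.021), and the difference of the Mmp8 effect in WT CM from that in media (0.0034).

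With only the groups compared, all genes called were 2044 with WT CM and 2186 with KEAP1 KO CM against media, 162 and 129 against NRF2 KO CM, 1606 and 142 with CDDO-Me in media and NRF2 KO CM, and 3684 and 3450 for the differences in WT and KEAP1 KO CM. Between KEAP1 KO CM and WT CM with CDDO-Me, the 7 genes became 18 with no filter, 11 with no trend, 4 with a pseudocount of 0.5 and 0 with a mean TPM of at least 5 or only the groups compared. Without scaling, the median of all genes shifted to -0.12 and -0.17 for CDDO-Me in WT and KEAP1 KO CM, and the share of calls that were higher fell from 49.9% to 39.1% and from 50.5% to 34.6%. The depth of each library is unknown, and the counting error of values near 1 TPM, such as those of Mmp3, was not computed.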
